A study of Mus musculus with 12 samples.

Results

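The proteasome is the cell's main machine for degrading ubiquitin-tagged protein, and the genes that encode its subunits were followed here in adult mouse cardiomyocytes with and without desmin. Desmin, encoded by Des, is the muscle-specific intermediate filament protein that links sarcomeres to each other, to mitochondria and to the cell junctions. The members were all genes whose symbol begins with Psm, one letter from a to g and a number, which gave 50 of the 21493 genes in the count tables. They comprise 7 alpha ring genes, 4 structural and 3 catalytic genes of the constitutive beta ring, the 3 immunoproteasome genes, 2 genes of tissue-specific core particles, 6 ATPase and 11 non-ATPase genes of the 19S cap, 5 activator genes, 1 inhibitor gene and 7 assembly chaperones. The remaining gene, Psmc3ip, matches by name only and encodes no subunit.

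Cardiomyocytes were obtained from hearts of 3-month-old mice by enzymatic perfusion with trypsin and collagenase D, and their poly-A RNA was sequenced. There were 4 groups of 3 libraries each, namely Des+/+ and Des-/- mice that had not swum and Des+/+ and Des-/- mice that had undergone swimming exercise. Per the study's methods each library pooled the cells of several mice, so replicates are pools and not animals. Des-/- mice lack the gene in every cell from the germline, so a difference between genotypes in these cells need not arise in the cardiomyocyte itself.

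The libraries held 4320819 to 12072443 reads assigned to genes, and levels are given in CPM, the counts of a gene scaled to a common library size after edgeR's TMM correction. The Des-/- swim libraries were the smallest, at 4320819 to 6521963 reads. Des itself lay at 1470 to 3650 CPM in Des+/+ non-swim and 973 to 1640 CPM in Des+/+ swim libraries, and at 50.3 to 101 CPM in the 6 Des-/- libraries. Cell composition differed between the genotypes. The summed level of 12 cardiomyocyte genes was 58600 to 93000 CPM in Des+/+ non-swim, 30400 to 51700 in Des+/+ swim, 6310 to 27800 in Des-/- non-swim and 16300 to 27400 CPM in Des-/- swim libraries. Summed fibroblast genes (10) ran from 3340 to 3920 CPM in Des+/+ non-swim and from 8570 to 40600 CPM in Des-/- non-swim libraries, and summed leukocyte genes (14) from 222 to 327 and from 453 to 4740 CPM. Replicate 3 had the highest fibroblast and leukocyte sums of both Des-/- groups. The 12 genes that respond to cell isolation summed to 1400 to 2290 CPM in Des+/+ non-swim and to 4400 to 9140 CPM in Des-/- non-swim libraries, whereas the endothelial sums of these groups overlapped. After swimming the fibroblast sums were 2360 to 3450 CPM in Des+/+ and 4130 to 14100 CPM in Des-/- libraries. The cell isolation sums there were 1890 to 2160 and 3800 to 6370 CPM. Leukocyte sums (261 to 302 and 258 to 1420 CPM) and endothelial sums overlapped between the genotypes after swimming. No marker list had a gene at 0 in every library of a group. The part of these shifts in the proteasome values was not tested, and in such bulk libraries fewer cells of a type and less RNA per cell cannot be told apart.

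As background, the 20S core is a barrel of 4 stacked rings whose inner beta rings carry the catalytic subunits Psmb6 (caspase-like), Psmb7 (trypsin-like) and Psmb5 (chymotrypsin-like). Interferon-responsive cells replace these by Psmb9, Psmb10 and Psmb8, which gives the immunoproteasome and other peptide products for antigen presentation. The 19S cap recognises ubiquitin chains, unfolds the substrate with its ring of ATPases and feeds it into the core, and alternative activators (Psme1 with Psme2, Psme3, Psme4) can take its place. In heart muscle the proteasome removes misfolded and worn sarcomeric proteins. Transcription of its constitutive genes is raised by Nfe2l1 through antioxidant response elements when proteasome activity falls short.

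Upstream sequences are shown for Psmb5, Psmc6, Psmd12 and Psme4, which were among the genes lower in Des-/- non-swim cells. Psmb10 is shown as an immunoproteasome gene, although its change in that comparison did not reach significance. Each sequence runs 5′ to 3′ on the gene's strand from 250 bases before the RefSeq start (GRCm38.p6) to the last base before the first annotated exon. Capitals mark the antioxidant response element core TGACNNNGC, read on either strand. The windows are chr14:54618023-54618245, minus strand, for Psmb5, chr14:45329574-45329787, plus strand, for Psmc6, chr11:107479278-107479483, plus strand, for Psmd12, chr11:30771525-30771725, plus strand, for Psme4, and chr8:105938445-105938642, minus strand, for Psmb10.
Psmb5: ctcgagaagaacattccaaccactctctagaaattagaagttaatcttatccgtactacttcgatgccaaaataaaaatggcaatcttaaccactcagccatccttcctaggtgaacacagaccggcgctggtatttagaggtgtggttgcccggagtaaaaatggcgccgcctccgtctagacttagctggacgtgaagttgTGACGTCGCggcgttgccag
Psmc6: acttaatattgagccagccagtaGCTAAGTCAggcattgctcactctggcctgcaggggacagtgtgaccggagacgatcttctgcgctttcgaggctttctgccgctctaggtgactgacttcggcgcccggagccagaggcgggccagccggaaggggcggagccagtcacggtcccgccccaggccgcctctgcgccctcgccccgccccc
Psmd12: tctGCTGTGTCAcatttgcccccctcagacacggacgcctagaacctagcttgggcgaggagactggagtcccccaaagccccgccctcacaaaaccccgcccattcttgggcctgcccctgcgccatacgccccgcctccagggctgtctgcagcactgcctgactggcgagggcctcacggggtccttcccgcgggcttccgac
Psme4: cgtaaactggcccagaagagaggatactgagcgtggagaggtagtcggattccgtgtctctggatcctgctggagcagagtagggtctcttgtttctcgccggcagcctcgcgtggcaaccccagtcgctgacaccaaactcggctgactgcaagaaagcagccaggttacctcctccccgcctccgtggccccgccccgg
Psmb10: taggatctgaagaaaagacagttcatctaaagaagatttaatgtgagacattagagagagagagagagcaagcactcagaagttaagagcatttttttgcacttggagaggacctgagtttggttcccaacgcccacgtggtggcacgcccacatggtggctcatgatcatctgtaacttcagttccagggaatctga

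Of the members, 42 genes had a RefSeq promoter window of 300 bases, 45 windows in all. The element core was found in 6 of these 45 windows (13.3%), those of Psmb5, Psmb6, Psmc6, Psmd9, Psmd12 and Psme4, against 12.4% of 32851 windows of all genes. In Psme4 the match lies past the end of the stretch shown. A CCAAT box (CCAAT, either strand) was in 33.3% of the members' windows and 37.4% of all. The interferon-stimulated element GAAANNGAA was in 7 windows (Psmb3, Psmb4, Psmc2, Psmd4, Psmd9, Psme1 and Psmg4), 15.6% against 8.56%. A form with a further A at its 3′ end was searched first and was in 5 windows, 11.1% against 3.44%, and the shorter form was taken up after that result was seen. A match describes these letters only.

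Compared per length, constitutive core and cap genes and the activator Psme1 led. In RPKM, the CPM value per kilobase of the principal transcript, Psmc3 was highest in Des+/+ non-swim cells at 167 ± 23.9 RPKM (SD, n = 3), followed by Psma7 (159 ± 28.4), Psmb4 (155 ± 13.3), Psme1 (148 ± 11.5) and Psmb7 (146 ± 13.6 RPKM). The gaps between these neighbours were smaller than their SDs, and the order depends on the length used. With all exons of a gene joined, Psmc3 stayed first at 105 RPKM and Psma7 stood at 47.3 RPKM. Median RPKM by role was 142 for the constitutive catalytic genes, 91.1 for the structural beta genes, 80.7 for the 19S ATPases, 76.4 for the alpha ring and 63.6 for the non-ATPases, against 29.8 for the immunoproteasome genes. With joined exons the medians were lower and the ATPases came first, at 65 RPKM against 49.6 for the catalytic, 47.3 for the structural beta, 42 for the alpha ring, 31.6 for the non-ATPase and 14.3 RPKM for the immunoproteasome genes. Assembly chaperones lay lower, at a median of 18 RPKM for the 20S and 9.65 RPKM for the 19S. The core genes of other tissues were near the floor. Psma8, the alpha subunit of the testis core, stood at 1.23 RPKM, and Psmb11, the beta subunit of the thymus core, had 0 reads in 7 of the 12 libraries and at most 0.319 CPM in the others, under the highest floor of 3 reads (0.656 CPM). Psmb11 was the 1 member that failed edgeR's low-count filter, so 49 of 50 members were tested among 13158 genes.

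The first comparison, between genotypes without swimming, asks what loss of desmin does at rest. Constitutive proteasome genes were lower in Des-/- cells, in the core and the cap alike, while the immunoproteasome gene Psmb8 was higher. By edgeR's quasi-likelihood test with Benjamini-Hochberg adjustment over all genes tested (adjusted p under 0.05), 24 of 49 members fell, where 18% of all genes tested were lower, and 1 rose, where 14% were higher. The members' median log2 change was -0.38 against 0.04 over all genes, and 42 of 49 were below 0 (47.4% of all genes). Groups did not overlap, with Des-/- lower, for 29 members (24.9% of all genes) and, with Des-/- higher, for 2 members (23%).

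**Figure D1:**
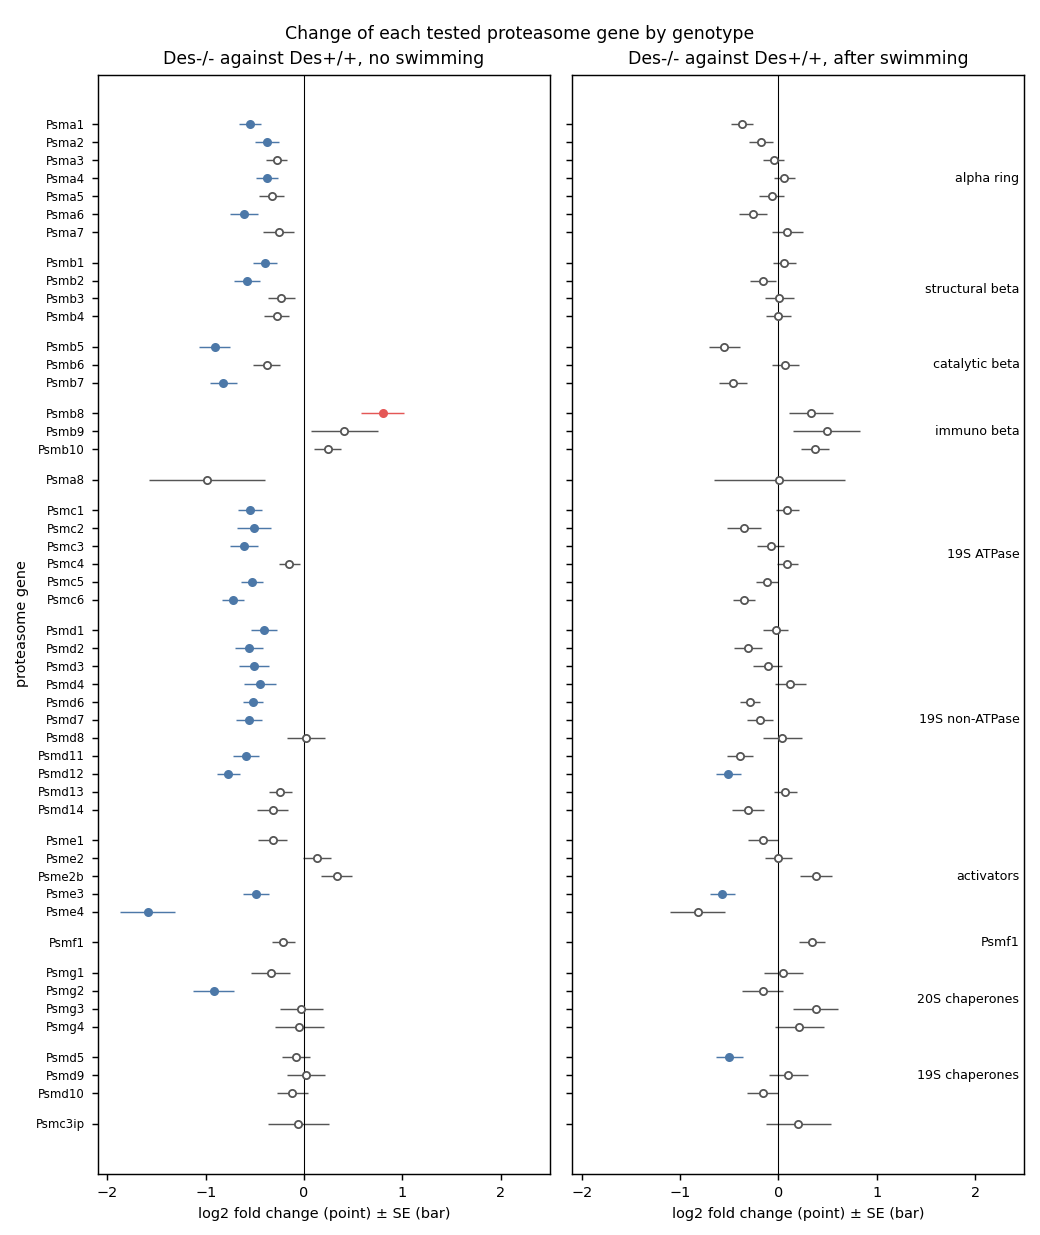
Log2 fold change (x axis) of the 49 tested proteasome genes (y axis, by role) between Des-/- and Des+/+ libraries, 3 a group, without swimming (left) and after swimming (right). Points are edgeR estimates, bars are SE, filled points have an adjusted p under 0.05 (blue lower, red higher). On the left 24 blue points span the core, cap and activators and the 1 red point is Psmb8; on the right 3 blue points remain, Psmd12, Psme3 and Psmd5, of which Psmd5 is not filled on the left.

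Of the 14 constitutive core genes 8 fell and all 14 were below 0, from -0.91 for Psmb5 to -0.23 for Psmb3. Psmb5, the chymotrypsin-like subunit, read 46.4, 35.8 and 47.7 CPM in Des+/+ and 25.1, 19.8 and 24.1 CPM in Des-/- non-swim libraries. Every Des-/- value lay under every Des+/+ value, and the log2 change was -0.91 ± 0.16 (SE, adjusted p = 0.00205, edgeR). Psmb7, the trypsin-like subunit, read 152, 176 and 181 against 102, 97.5 and 87.7 CPM, again without overlap, a log2 change of -0.82 ± 0.14 (adjusted p = 0.00152, edgeR). Psmb6, the caspase-like subunit, read 102, 117 and 123 against 87.3, 75.2 and 98.8 CPM. Its groups did not overlap either, but its change of -0.38 ± 0.14 missed the threshold (adjusted p = 0.0566, edgeR), and DESeq2 gave 0.0432. In the structural rings Psma1, Psma2, Psma4, Psma6, Psmb1 and Psmb2 fell, by 0.38 to 0.61 on the log2 scale. Psma2 was called in 1, and Psma4 and Psmb1 each in 2, of the 6 fits that left out a library of this comparison. With upper-quartile scaling Psma2, Psma4 and Psmb1 were not called.

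In the 19S cap 13 of 17 genes fell, with a median of -0.52 and a range of -0.77 to 0.02. Psmc6, one of the ATPases that unfold substrates, had the smallest p of all members. It read 121, 128 and 116 CPM in Des+/+ and 69.1, 76.8 and 75.5 CPM in Des-/- non-swim libraries (log2 change -0.72 ± 0.11, adjusted p = 0.00112, edgeR). Psmd12, a scaffold subunit of the lid, read 112, 135 and 115 against 62.5, 75.5 and 74.3 CPM (-0.77 ± 0.12, adjusted p = 0.0014, edgeR). For both genes the lowest Des+/+ library was above the highest Des-/- library. Among the ATPases Psmc1, Psmc2, Psmc3 and Psmc5 also fell, by 0.51 to 0.61, and Psmc4 did not pass (-0.15 ± 0.11). Among the non-ATPases the largest base subunits Psmd1 and Psmd2 fell by 0.41 and 0.56, and Psmd8, Psmd13 and Psmd14 did not pass. Psmc2 and Psmd1 were each called in 1 of the 6 fits that left out a library of this comparison. With upper-quartile scaling Psmc2 and Psmd1 were not called. Psmd4, the ubiquitin receptor, was just past the threshold with overlapping groups (-0.45 ± 0.16, adjusted p = 0.0471, edgeR). DESeq2 called it too, but edgeR did not under the other scalings, filters or sets of libraries or with the replicate block, and it was called in 3 of the 12 fits that left out 1 library. Psmd14, the deubiquitinase that strips chains from substrates, was at -0.32 ± 0.16 (adjusted p = 0.142, edgeR).

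**Figure D2:**
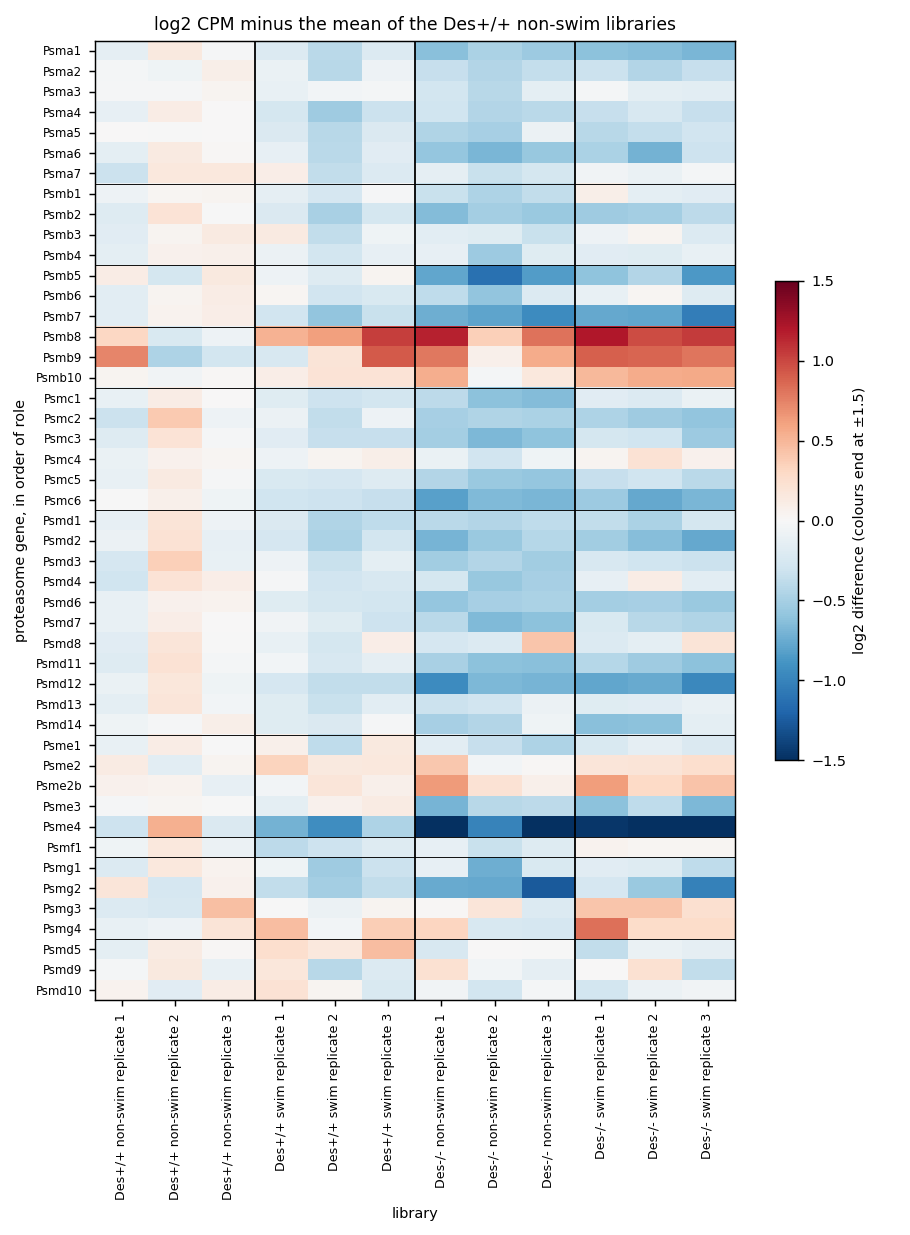
Each row is a proteasome gene (in order of role, thin lines between roles), each column a library (thick lines between the 4 groups). Colour is log2 CPM minus the gene's mean over the 3 Des+/+ non-swim libraries, blue lower and red higher, ending at ±1.5; Psma8, Psmb11 and Psmc3ip are not drawn. The Des-/- non-swim columns are blue for most core and cap genes, and Psmb8 is red in all Des-/- columns.

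The activators did not move as a block. Psme4, which encodes the large ATP-independent activator PA200, had the largest fall of all members, although it was singled out here after its values were seen. It read 321, 577 and 343 CPM in Des+/+ and 101, 199 and 113 CPM in Des-/- non-swim libraries, and its log2 change was -1.59 ± 0.28 (adjusted p = 0.00224, edgeR). Replicate 2 was the highest library of both groups, and without Des+/+ replicate 2 the change was -1.27. Psme3, the activator of nuclear proteasomes, fell by 0.49 ± 0.13 (adjusted p = 0.0138, edgeR). Psme1 and Psme2, the interferon-responsive pair, did not pass. Psme1 read 153, 178 and 164 against 147, 130 and 119 CPM (-0.32 ± 0.15, adjusted p = 0.124, edgeR), and Psme2 read 69.2, 56.6 and 65.1 against 83.8, 61.6 and 64 CPM (0.13 ± 0.14, adjusted p = 0.488, edgeR). Psme2 and its copy Psme2b are near-identical, so reads may be split between them or lost as not unique. The inhibitor Psmf1 was at -0.21 ± 0.12 (adjusted p = 0.208, edgeR).

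**Figure D3:**
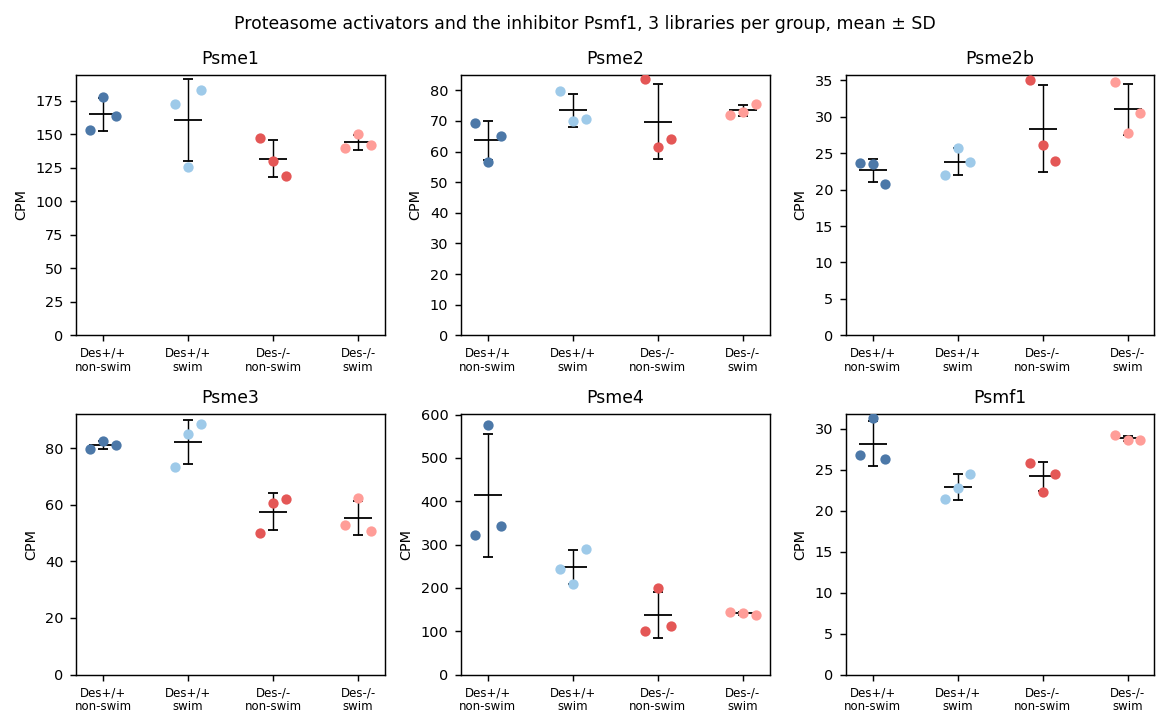
CPM (y axis, from 0) of the 5 activator genes and the inhibitor Psmf1 in each library (points, 3 per group), with the group mean and SD as bars. Psme4 and Psme3 are lower in every Des-/- library than in every Des+/+ library, and Psme2 overlaps between the genotypes.

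Of the 7 assembly chaperones 1 fell (18% of all genes were lower). This was Psmg2, which helps to form the alpha ring (36.4, 27.1 and 33.7 against 19, 18.9 and 13.4 CPM, log2 change -0.92 ± 0.21, adjusted p = 0.00711, edgeR). The other 6 ranged from -0.34 for Psmg1 to 0.02 for Psmd9 and none of them passed.

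Of the 3 immunoproteasome genes 1 rose, Psmb8 (14% of all genes were higher), and all 3 had values above 0 (52.6% of all genes). Psmb8, which replaces Psmb5, read 59.3, 40.9 and 45.3 CPM in Des+/+ and 107, 61.3 and 84.2 CPM in Des-/- non-swim libraries. The lowest Des-/- library was just above the highest Des+/+ library, and the log2 change was 0.80 ± 0.22 (1.74-fold, adjusted p = 0.017, edgeR). The call was lost when Des+/+ non-swim replicate 2 or 3 or Des-/- non-swim replicate 1 was left out, with values of 0.58 to 0.98 and adjusted p up to 0.0721 over the 12 such fits. Psmb9, which replaces Psmb6, read 43.3, 19 and 21.6 against 45.1, 27.6 and 38.4 CPM, and the groups overlapped through Des+/+ replicate 1 (0.41 ± 0.34, adjusted p = 0.379, edgeR). Psmb10, which replaces Psmb7, read 67.2, 63.1 and 66.2 against 95.3, 64.4 and 72.9 CPM (0.24 ± 0.14, adjusted p = 0.196, edgeR). Of the Des-/- non-swim libraries, replicate 1 had the highest Psmb8 and Psmb10 values and a leukocyte sum of 700 CPM. Replicate 2 had the lowest values of both genes and a leukocyte sum of 453 CPM, and replicate 3 had a sum of 4740 CPM. The part of leukocytes in these values was not tested. Psmb8 and Psmb9 lie near each other in the major histocompatibility region. Psmb8 is at chr17:34197721-34201454 and Psmb9 at chr17:34181987-34187764 (GRCm38, GENCODE M21). They share 498 and 212 exonic bases with Gm20496 and Tap1, in that order, on the other strand.

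**Figure D4:**
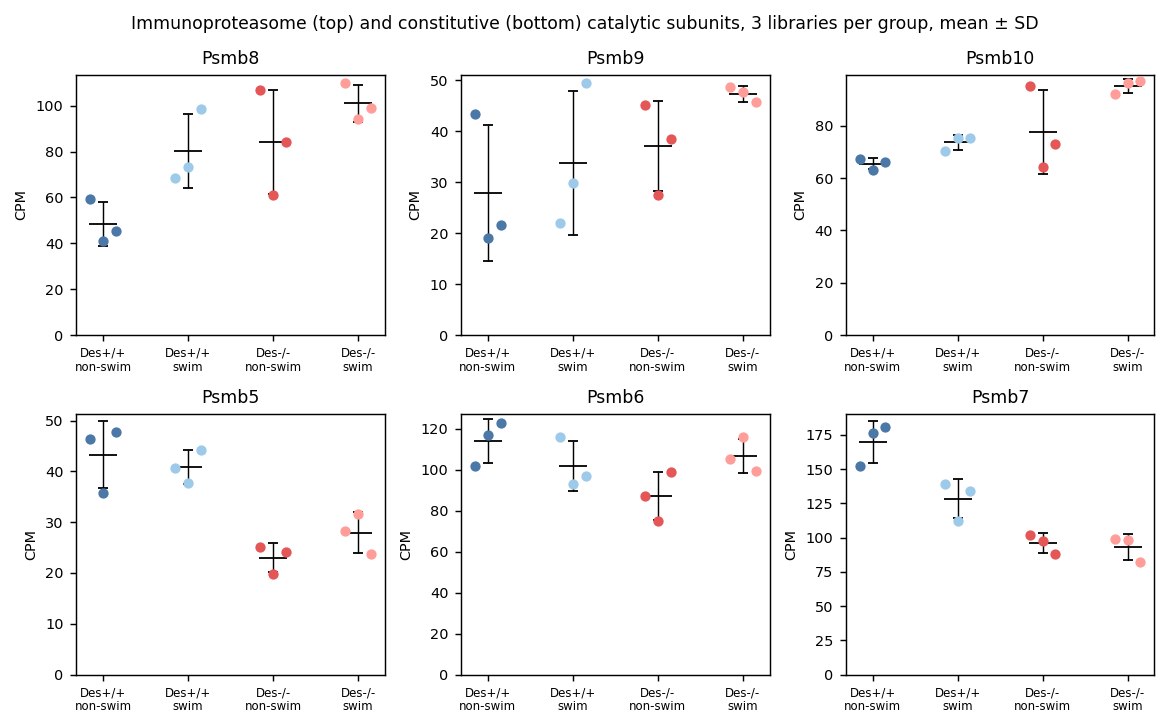
CPM (y axis, from 0) of the immunoproteasome genes Psmb8, Psmb9 and Psmb10 (top) and of the constitutive genes they replace, Psmb5, Psmb6 and Psmb7 (bottom), in each library (points, 3 per group) with mean and SD. Psmb5 and Psmb7 are lower in every Des-/- library than in every Des+/+ library, and Psmb8 has its lowest values, 40.9 to 59.3 CPM, in the Des+/+ non-swim group.

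Since the immunoproteasome subunits take the place of constitutive ones, the ratio within each pair was compared in the 12 libraries, a measure that hardly depends on library scaling. The log2 ratio of Psmb8 to Psmb5 was 0.35, 0.19 and -0.08 in Des+/+ non-swim, 0.75, 0.96 and 1.15 in Des+/+ swim, 2.09, 1.62 and 1.8 in Des-/- non-swim, and 1.95, 1.56 and 2.05 in Des-/- swim libraries. All 6 Des-/- libraries were above all 6 Des+/+ libraries. The genotype difference was 1.29 (2.44-fold), with 1.68 without and 0.90 after swimming, and the exact permutation test within swimming status gave p = 0.005, the smallest that its 400 arrangements allow (two-sided, adjusted p = 0.015 over 6 tests). For Psmb10 to Psmb7 the ratio was -1.17, -1.48 and -1.45, then -0.99, -0.57 and -0.83 in Des+/+, and -0.1, -0.6 and -0.27, then -0.11, -0.03 and 0.24 in Des-/- libraries, non-swim before swim. Its genotype difference was 0.94 (1.91-fold, exact permutation p = 0.005, adjusted p = 0.015), and its swimming difference was 0.46 (1.38-fold, p = 0.01, adjusted p = 0.02). With labels exchanged only within a replicate number, the block of the paired analysis, this swimming difference had an exact permutation p of 0.0625.

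The third pair was less certain. Psmb9 to Psmb6 differed by 0.68 between genotypes (1.6-fold, exact permutation p = 0.07, adjusted p = 0.084), and the Des+/+ libraries alone spanned -2.6 to -0.97. Without Des+/+ non-swim replicate 1 the difference was 0.90 (exact permutation p = 0.02), and without Des+/+ swim replicate 3 it was 0.85 (p = 0.015). Swimming moved Psmb8 to Psmb5 by 0.41 (exact permutation p = 0.055, adjusted p = 0.0825), with 0.80 in Des+/+ and 0.01 in Des-/- mice, and Psmb9 to Psmb6 by 0.27 (p = 0.385). Whether the swimming differences themselves differed between genotypes was not tested for the ratios. Per length of the principal transcript, Psmb8 made up 38.1% ± 3.52 of the summed Psmb8 and Psmb5 level in Des+/+ non-swim and 66.4% ± 3.64 in Des-/- non-swim libraries (SD, n = 3). With the length of all exons joined the same shares were 22.9% and 48.9%, so their height depends on the transcript model, and they were higher in Des-/- cells with either length.

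**Figure D5:**
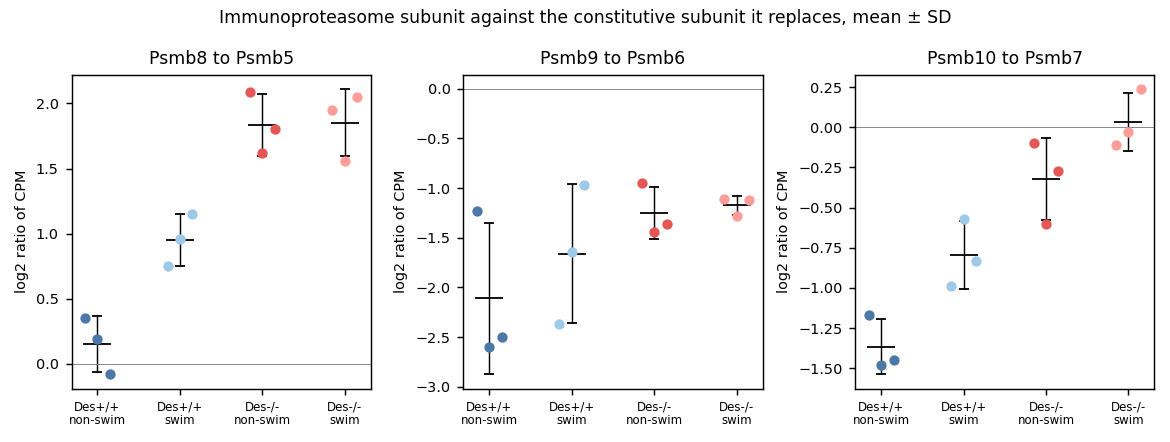
Log2 ratio of CPM (y axis) of each immunoproteasome gene to the constitutive gene it replaces, in each library (points, 3 per group) with mean and SD. For Psmb8 to Psmb5 all Des-/- points (1.56 to 2.09) are above all Des+/+ points (-0.08 to 1.15), and for Psmb9 to Psmb6 the groups overlap.

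After swimming edgeR called fewer genes between the genotypes, among the members and over all genes alike. Without swimming 18% of all genes were lower and 14% higher. After swimming 3 of 49 members fell, near the share of all genes that were lower (5.57%), and 0 rose (5.01% higher). At an unadjusted p under 0.05, 3 members were higher (14.7% of all genes), and DESeq2 called 0 higher. Of the members 28 were below 0 (48.4% of all genes), and the members' median was -0.05 against 0.02 over all genes. Psme3 read 73.5, 84.9 and 88.5 CPM in Des+/+ and 52.9, 62.3 and 50.8 CPM in Des-/- swim libraries (-0.57 ± 0.13, adjusted p = 0.0224, edgeR). Psmd12 read 101, 93 and 93.1 against 69.8, 71.1 and 61.6 CPM (-0.51 ± 0.13, adjusted p = 0.0294, edgeR), and Psmd5, a chaperone of the 19S base, 37.4, 35.1 and 43.1 against 24.2, 29.3 and 28.5 CPM (-0.50 ± 0.14, adjusted p = 0.0442, edgeR). For all 3 genes the groups did not overlap, as for 13 members with Des-/- lower (18.6% of all genes) and 4 with Des-/- higher (17.3%). Psmb5 stood at the threshold itself, with 40.7, 37.7 and 44.3 against 28.3, 31.7 and 23.7 CPM (-0.55 ± 0.16, adjusted p = 0.05, edgeR), as did Psmb7, at 139, 112 and 134 against 99.3, 98.2 and 82.4 CPM (-0.46 ± 0.14, adjusted p = 0.0508). Psme4 read 244, 210 and 290 against 145, 141 and 137 CPM (-0.82 ± 0.28, adjusted p = 0.0796, edgeR). Psme1 read 173, 126 and 183 against 140, 150 and 142 CPM (-0.16 ± 0.15) and Psme2 79.8, 70.1 and 70.6 against 72.1, 72.8 and 75.4 CPM, and the groups of both overlapped.

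The count changed with the settings. DESeq2 called 9 members lower, adding Psma1, Psmb5, Psmb7, Psmc6, Psmd11 and Psme4, and leaving out single libraries gave 0 to 5. Fitted on the 6 libraries compared alone, edgeR called Psme4 only, and Psme3, Psmd12 and Psmd5 had adjusted p of 0.0504, 0.0501 and 0.0783. With the replicate block Psmd5 was not called (adjusted p = 0.0526, edgeR), nor was it without the low-count filter (0.0673). Without replicate 3 of both Des-/- groups Psmd12 and Psmd5 were not called (0.0623 and 0.0572). With upper-quartile scaling, which raises the median of all genes from 0.02 to 0.12, the members' median turned to 0.05 and the calls became Psme3 lower and the inhibitor Psmf1 higher. Immunoproteasome genes did not pass in this comparison. Psmb10 came nearest, at 70.2, 75.4 and 75.3 against 92, 96.2 and 97 CPM without overlap (0.37 ± 0.14, adjusted p = 0.101, edgeR). Psmb8 read 68.6, 73.3 and 98.6 against 110, 94.3 and 98.8 CPM (0.33 ± 0.22, adjusted p = 0.317), Psmb9 22.1, 29.9 and 49.4 against 48.6, 47.7 and 45.7 CPM (0.49 ± 0.34, adjusted p = 0.348). Psmb6 was at 0.07 ± 0.14 on the log2 scale, from 116, 93.2 and 96.9 against 105, 116 and 99.6 CPM, and its groups overlapped.

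No proteasome gene passed edgeR's threshold with swimming in either genotype. In Des+/+ cells 0 of 49 members passed (0.0912% of all genes were called, all higher), 39 were below 0 (58% of all genes), and the median was -0.19 against -0.08. At an unadjusted p under 0.05, 12 members were lower (12% of all genes) and 1 higher (8.46%). Groups did not overlap for 19 lower (18.7%) and 4 higher members (12.5%). The 1 higher was Psmb8, at 48.5 ± 9.6 CPM without and 80.2 ± 16.1 CPM with swimming (SD, n = 3), a log2 change of 0.72 ± 0.22 (adjusted p = 0.121, edgeR). DESeq2 called 2 members, Psmb8 higher (0.74, adjusted p = 0.0326) and the alpha ring gene Psma4 lower (-0.35, adjusted p = 0.0414). Psma4 read 81.8, 96.3 and 88.9 CPM without and 74, 61.6 and 71.2 CPM with swimming. The other members with the smallest p were Psmb7 (139, 112 and 134 CPM with swimming, log2 change -0.40 ± 0.13) and Psmc6 (99.2, 98.1 and 95.9 CPM, -0.31 ± 0.11), neither of which passed (adjusted p = 0.143 and 0.144, edgeR). Psmb9 changed by 0.27 ± 0.34 and Psmb10 by 0.17 ± 0.14, and neither passed.

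In Des-/- cells edgeR again called 0 of 49 members (0.0228% of all genes). Here 35 of 49 were above 0 (48.5% of all genes) and the median was 0.09 against -0.01. At an unadjusted p under 0.05, 4 were higher (7.77% of all genes) and 0 lower (8.96%), and groups did not overlap for 11 higher (10.4%) and 0 lower members (9%). The 4 were Psmc1, Psmb1, Psmd4 and Psmc4. Psmc1, an ATPase of the cap, read 132, 113 and 110 CPM without and 154, 150 and 161 CPM with swimming (0.39 ± 0.12, adjusted p = 0.198, edgeR), and DESeq2 called it (0.41, adjusted p = 0.0191). Psmb1 read 115, 105 and 112 against 154, 131 and 129 CPM, Psmd4 115, 93.2 and 97.5 against 127, 149 and 124 CPM, and neither gene's groups overlapped. Psmc4 read 88, 77.2 and 90.3 against 97.1, 109 and 98.5 CPM (0.25 ± 0.11, adjusted p = 0.294, edgeR). The immunoproteasome genes did not pass, with log2 changes of 0.26 ± 0.22 for Psmb8, 0.35 ± 0.34 for Psmb9 and 0.29 ± 0.14 for Psmb10.

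The interaction, the swimming change in Des-/- minus that in Des+/+ cells, tests the difference directly. No member passed by edgeR (0% of all genes were called), 11 had an unadjusted p under 0.05 and a positive value (10.1% of all genes), and 44 of 49 were above 0 (52.6% of all genes), with a median of 0.27 against 0.03. All 31 constitutive core and cap genes were above 0, from 0.01 to 0.64. Psmc1 led with 0.64 ± 0.16 (adjusted p = 0.199, edgeR), which DESeq2 called (0.64, adjusted p = 0.00733), the 1 member it called. Psmf1, the inhibitor, followed at 0.55 ± 0.18. It read 26.8, 31.3 and 26.3 CPM in Des+/+ non-swim, 21.4, 22.7 and 24.5 in Des+/+ swim, 25.8, 22.3 and 24.5 in Des-/- non-swim, and 29.2, 28.6 and 28.6 CPM in Des-/- swim libraries. Psmb1 (0.45 ± 0.17) and Psma4 (0.44 ± 0.16) were next. Among the immunoproteasome genes the values were -0.46 ± 0.31 for Psmb8, 0.08 ± 0.48 for Psmb9 and 0.12 ± 0.19 for Psmb10. Since the interaction and both swimming comparisons use the same libraries, these counts are not separate evidence. The cardiomyocyte marker sum had the same signs, with 12 of 12 genes below 0 on swimming in Des+/+ cells (median -0.79), 12 of 12 above 0 in Des-/- cells (0.57) and an interaction median of 1.33. Its part in the proteasome values was not tested.

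As a share of all assigned reads, the 50 members together made up 0.46% ± 0.0175 in Des+/+ non-swim, 0.423% ± 0.0202 in Des+/+ swim, 0.399% ± 0.0217 in Des-/- non-swim and 0.429% ± 0.0121 in Des-/- swim libraries (SD, n = 3). The Des+/+ non-swim range, 0.441 to 0.476%, did not overlap that of Des-/- non-swim, 0.381 to 0.423%, and the groups after swimming overlapped.

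Other genes of the pathway were counted from lists. Of 10 tested proteasome partners outside the name pattern 7 fell in Des-/- non-swim cells (18% of all genes were lower), with a median of -0.48. They were led by Ecpas, a scaffold that binds the 26S particle (log2 change -1.02 ± 0.16, adjusted p = 0.00131, edgeR), Usp14, a deubiquitinase of the cap (-0.69 ± 0.12, adjusted p = 0.00187), and Txnl1, a thioredoxin-like protein bound to the cap (-0.55 ± 0.14, adjusted p = 0.0116). After swimming 3 of 10 fell (5.57% of all genes). Of 4 genes that control proteasome transcription, Nfe2l1 (-0.64 ± 0.18, adjusted p = 0.0205, edgeR) and Ngly1, the enzyme that processes its product (-0.44 ± 0.12, adjusted p = 0.0155), fell without swimming. After swimming 0 passed by edgeR (5.57% of all genes were lower) and 0 by DESeq2. The 2 lower there at an unadjusted p under 0.05 were Nfe2l2 (-0.52 ± 0.18) and Ddi2 (-0.43 ± 0.16). Without swimming these stood at 0.03 and 0.05.

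Of 7 muscle ubiquitin ligases 5 fell in Des-/- non-swim cells, against 18% of all genes, among them Trim63, which encodes MuRF1 (-2.89 ± 0.40, adjusted p = 0.000922, edgeR), Fbxo32, which encodes atrogin-1 (-1.52 ± 0.22, adjusted p = 0.00111), and Trim54 (-2.39 ± 0.43, adjusted p = 0.00228). These genes are themselves largely expressed in muscle cells, and the cardiomyocyte marker genes had a median of -2.13 in the same comparison. The part of cell composition in the values of these ligases was not tested. After swimming 3 of 7 fell (5.57% of all genes). Of 16 genes for ubiquitin supply and delivery 5 fell without swimming, against 18% of all genes, led by Ubqln4 (-0.83 ± 0.19), Nploc4 (-0.56 ± 0.13) and Rad23b (-0.52 ± 0.13), which carry ubiquitylated proteins to the proteasome, and 0 rose (2 were higher at an unadjusted p under 0.05 and 1 by DESeq2). After swimming Ubqln1 fell (-0.61 ± 0.14) while Rps27a, which encodes a ubiquitin fused to a ribosomal protein, rose (0.58 ± 0.16, adjusted p = 0.0434, edgeR).

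The genes that accompany the immunoproteasome in antigen processing were counted beside it. Of 9 tested, 1 rose in Des-/- non-swim cells, a share below the 14% of all genes that were higher. It was Irf8, a transcription factor of myeloid cells (1.83 ± 0.55, adjusted p = 0.0255, edgeR). It read 13.2, 11.6 and 15.1 CPM in Des+/+ and 25.3, 21.3 and 94.7 CPM in Des-/- libraries, highest in the library with the highest leukocyte sum. The list's median was 0.50, and 8 of 9 were above 0 (52.6% of all genes). Irf1, an interferon-induced transcription factor, was at 0.59 ± 0.21 (adjusted p = 0.0517, edgeR; called by DESeq2) and Tap2, a peptide transporter gene, at 0.37 ± 0.16 (adjusted p = 0.088). After swimming 0 of 9 passed by edgeR (0 at an unadjusted p under 0.05 and 0 by DESeq2) and the median was 0.03.

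The same list moved with swimming in Des+/+ mice by a median of 0.60, with 8 of 9 genes above 0 (42% of all genes) and 0 past the threshold by edgeR (2 higher at an unadjusted p under 0.05). Irf1 read 119, 83.4 and 102 CPM without and 177, 140 and 224 CPM with swimming, a log2 change of 0.83 ± 0.21 (adjusted p = 0.0942, edgeR), and DESeq2 called it as its 1 gene of the list. In Des-/- cells it read 139, 124 and 196 CPM without and 143, 134 and 128 CPM with swimming, and all 9 genes had an interaction below 0 (47.4% of all genes, median -0.47). By edgeR 0 of 9 passed in the interaction (2 lower at an unadjusted p under 0.05), and DESeq2 called Irf1 lower. Irf1 and Psmb8 both had their lowest mean in Des+/+ non-swim cells, and their order over the other groups differed. Irf1 was highest in Des+/+ swim and Psmb8 in Des-/- swim cells. The interaction of Psmb8 did not pass (adjusted p = 0.448, edgeR).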

How the data were processed

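Gene counts of 12 libraries were used, 4 groups of 3. The authors deposited whole-number read counts per gene for each library; per the study's methods and processing notes, single-end reads of 100 bases were aligned to GRCm38 with HISAT2 (2.2.1) and counted with HTSeq on the reverse strand, and the annotation release is not given in the sources used here. The labels name an Illumina TruSeq v2 kit, which keeps no strand, and the methods a directional kit, so reads of antisense neighbours may not be told apart. Reads counted in no gene row (no feature, ambiguous, not unique, not aligned) equalled 52.4 to 78.8% of all reads of a library and stayed out of library sizes. The share was 53.5 to 59.5% in Des+/+ non-swim and 63.6 to 68.4% in Des+/+ swim libraries. In Des-/- libraries it was 52.4 to 68.3% without and 72.3 to 78.8% with swimming. The part of depth and of this share in the comparisons was not tested.

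Counts were filtered with filterByExpr, scaled by TMM and tested in edgeR (4.0.16; R 4.3.3, limma 3.58.1) by the quasi-likelihood F test on 4 group means over all 12 libraries (8 residual degrees of freedom, common biological coefficient of variation 0.271). Adjustment was over all 13158 genes tested, threshold 0.05. Ratios used a prior count of 2 and exact two-sided permutation within the other factor. DESeq2 (1.42.0), other scalings and filters, libraries left out and a replicate block were alternatives. Same-numbered libraries deviated together in 1 comparison, swimming in Des-/- cells (correlations 0.365, 0.316 and 0.602). Replicates are pools of mice, so p-values measure the spread between pools. Lengths, overlaps and near-identical copies (at least 95% identity over 100 coding bases, 10 members) came from GENCODE M21, which held 21488 of the 21493 genes. Of such copies, Psme2b for Psme2 and 1 of the 4 of Psma3 are rows of the tables.

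In counts simulated for the comparison of genotypes without swimming (13053 genes), edgeR called 1 of 50 genes changed by 0.5 on the log2 scale, 21 of 50 changed by 1, 41 of 50 changed by 2 and 49 of 50 changed by 3, and 10 of 12853 unchanged genes. The simulation thus left most genes unchanged, whereas in the data 14% of all genes were called higher and 18% lower. The adjustment is stricter when few genes change, so these rates do not carry over to the proteasome genes.

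The members and all lists were chosen with earlier results of these data known. The named genes were the 3 immunoproteasome genes, their constitutive counterparts, Psme1, Psme2 and the 4 members with the smallest p in each comparison, and of each other list at most the 3 genes with the smallest p are named. Psme4, Psmg2 and further members named by value were chosen after their values were seen, as was Irf8 as a gene shown by library. Values of some listed genes and of 1 promoter motif searched are not reported here.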

Additional observations from a re-analysis of the deposited data

How the results depend on the processing

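Without swimming, the proteasome genes called between genotypes numbered 25 (24 lower) and 18 to 26 under the scalings, count filters, DESeq2, the fit on the 6 libraries compared, the replicate block (24) and without replicate 3 of both Des-/- groups (20), and 18 to 25 with 1 library left out; 17 of the 25 were called in all 12 of those fits and 18 with upper-quartile scaling, which raised the median of all genes from 0.04 to 0.14. Psmb8 was not called without Des+/+ non-swim replicate 2 or 3 or Des-/- non-swim replicate 1. With the study's filter (p of at most 0.05, a log2 change of at least 0.6, mean count of at least 20) the count was 9, and it was 1 for genotypes after swimming, 2 for swimming in Des+/+ and 2 for the interaction; its change limit removes the smaller changes. After swimming the count between genotypes was 3, 9 with DESeq2, 1 with only the 6 libraries compared (Psme4, none of the 3), 2 with the replicate block (Psmd5 lost) and 0 to 5 with 1 library left out: 5 without Des+/+ non-swim replicate 2 or Des-/- non-swim replicate 3, 1 without Des+/+ swim replicate 1 or 2 or Des-/- swim replicate 2, and 0 without Des+/+ swim replicate 3 or Des-/- swim replicate 1 or 3. With DESeq2 swimming gave 2 calls in Des+/+ and 1 in Des-/- cells and the interaction 1, against 0 by edgeR. With the replicate block edgeR called 0 members in each swimming comparison and the interaction, so the pairing changed no call there.

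With labels exchanged only within a replicate number (the block), the swimming difference of Psmb10 to Psmb7 was 0.46 with an exact permutation p of 0.0625, and both genotype differences had p = 0.0312, the smallest of its 64 arrangements. With 1 library left out, Psmb8 to Psmb5 differed by 1.23 to 1.36 between genotypes and by 0.35 to 0.48 with swimming, Psmb9 to Psmb6 by 0.50 to 0.90 and 0.09 to 0.49, and Psmb10 to Psmb7 by 0.88 to 1 and 0.39 to 0.52. Values near 0 changed sign 5 times: the interaction of Psmb9 (0.08) was -0.37, -0.15 and -0.09 without Des+/+ non-swim replicate 1, Des+/+ swim replicate 1 and Des-/- non-swim replicate 2, its swimming change in Des+/+ (0.27) was -0.10 without Des+/+ swim replicate 3 and at most 0.73, and the genotype change of Psme2 without swimming (0.13) was -0.02 without Des-/- non-swim replicate 1 and at most 0.21. Leaving out replicate 3 of both Des-/- groups turned no direction among the named values. The cause of these shifts was not tested.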
